A study of Drosophila melanogaster with 2 samples.

Results

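The genes for translation initiation, elongation and release factors were taken as the protein-coding genes of the Ensembl annotation whose symbol starts with eIF, eEF or eRF, which gave 54 of 13968 protein-coding genes. They were read against binding of toe (twin of eyegone), a transcription factor of the Pax family, in whole adult male Drosophila melanogaster. The flies were of the toe-GFP line, a transgenic line that stably carries toe with GFP at its C-terminus. Chromatin was sheared by sonication and precipitated with an antibody to the tag, and DNA from 2 biological replicates, numbered 2 and 3, was sequenced. The age of the flies is given as unknown. There was 1 group, so no comparison between conditions could be made, and whole flies mix all tissues. A gene was called bound when a peak reproducible between the replicates, by the irreproducible discovery rate, had its summit no more than 500 bp from a start site annotated for the gene.

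Initiation factors bring the small ribosomal subunit, the initiator tRNA and the mRNA together, find the start codon and let the large subunit join. Elongation factors then deliver aminoacyl-tRNAs and move the ribosome along the mRNA, and release factors end synthesis at a stop codon. Many of these proteins act in multisubunit complexes, and several are encoded by paralogous genes whose products are used in particular tissues, among them the male germ line.

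Of the 54 translation factor genes, 11 were bound (20.4%, 95% Wilson interval 11.8 to 32.9%), against 2701 of 13968 protein-coding genes (19.3%). The share of the translation factor genes was thus near that of coding genes at large, and the interval, which covers the counting of genes only, takes in the background. The bound genes were eIF6, eIF4EHP, eIF3m, eIF4A, eIF2A and eIF2Bgamma among initiation factors, eEF1gamma, eEF1alpha1, eEF1alpha2 and eEF2 among elongation factors, and the release factor gene eRF3.

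Each of the 11 bound genes had at least 1 of the short motifs searched within 100 bases of a reproducible summit. Such motifs were common: of the 2289 reproducible peaks at start sites of any gene, 35.9% had TATAAA, 22.0% GAGAG and 12.6% CAGCTG. The share of all bound coding genes with any of the motifs near a summit was not counted. The DNA just upstream of the start site is shown for 5 of the 11 genes, and sites of eIF2A and eIF4A follow. eIF6, eIF3m, eIF2Bgamma and eEF1alpha1 also had a motif near a summit and are not printed. Letters of several motifs are in capitals: TATCGATA, the DNA replication-related element of many housekeeping promoters; ACAGTGG or its complement CCACTGT; and TATAAA or its complement TTTATA, the core of a TATA box. Each stretch reads 5′ to 3′ on the strand of the gene, ends 1 base before the start site and comes from the RefSeq sequence of the dm6 assembly. Capitals mark a motif on either strand and at any distance from the start site. Whether a marked TATAAA works as a TATA box was not tested. The summit was at position 106 of the eIF4EHP stretch, 74 of eEF1gamma, 107 of eRF3, 72 of eEF1alpha2 and 134 of eEF2.
eIF4EHP, chr3R:24108961-24109260, minus strand: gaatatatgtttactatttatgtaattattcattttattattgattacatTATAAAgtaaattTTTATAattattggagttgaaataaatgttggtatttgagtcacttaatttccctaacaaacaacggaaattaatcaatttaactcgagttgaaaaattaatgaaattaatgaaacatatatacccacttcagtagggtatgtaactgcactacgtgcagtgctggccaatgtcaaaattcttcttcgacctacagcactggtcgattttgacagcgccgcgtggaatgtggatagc
eEF1gamma, chr3R:29220022-29220171, plus strand: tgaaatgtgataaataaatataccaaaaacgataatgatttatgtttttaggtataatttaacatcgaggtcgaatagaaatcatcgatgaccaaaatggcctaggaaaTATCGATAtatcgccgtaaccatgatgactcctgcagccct
eRF3, chr2L:12434302-12434451, plus strand: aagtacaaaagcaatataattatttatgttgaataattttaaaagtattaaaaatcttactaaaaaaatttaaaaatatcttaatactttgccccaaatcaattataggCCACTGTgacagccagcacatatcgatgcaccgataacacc
eEF1alpha2, chr3R:31738318-31738467, plus strand: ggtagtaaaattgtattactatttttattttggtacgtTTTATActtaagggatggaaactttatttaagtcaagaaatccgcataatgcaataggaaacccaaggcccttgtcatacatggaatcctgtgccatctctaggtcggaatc
eEF2, chr2L:21682165-21682314, minus strand: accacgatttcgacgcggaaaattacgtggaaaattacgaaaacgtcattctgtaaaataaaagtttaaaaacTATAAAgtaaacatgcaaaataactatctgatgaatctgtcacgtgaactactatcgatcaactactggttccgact
In eEF1gamma and eRF3 a motif of the first or second kind stood within 100 bases of the summit, downstream of it. In eIF4EHP, eEF1alpha2 and eEF2 the motif in reach was TATAAA or its complement.

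At eIF2A and eIF4A the summit lay in the annotated 5′ UTR, downstream of the outermost start site, and only the site itself is shown, in capitals, with 11 bases on either side. The site began at −29 bp from the summit in eIF2A and at −41 bp in eIF4A.
eIF2A, chr3L:21824865-21824894, plus strand: ttactatcgctTATCGATAcaccgcgtaca
eIF4A, chr2L:5982442-5982470, plus strand: caacactggcgCCACTGTtacgtgctaat

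The upstream sequences of 3 unbound genes are shown for contrast. eIF4E1 encodes the main cap-binding initiation factor and is a relative of the bound eIF4EHP, eRF1 is the partner of the bound eRF3, and eIF1 is a start codon selection factor. eIF1 and eRF1 had strong regions in both replicates that did not reach the reproducible list, as given further on. The replicate 2 summit lay at position 13 of the eIF1 stretch, beside its TATCGATA, and at position 44 of the eRF1 stretch.
eIF4E1, chr3L:9402461-9402610, minus strand: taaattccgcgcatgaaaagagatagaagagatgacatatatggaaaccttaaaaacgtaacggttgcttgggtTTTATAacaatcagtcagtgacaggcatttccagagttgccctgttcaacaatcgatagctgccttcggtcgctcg
eIF1, chr3L:3223041-3223340, plus strand: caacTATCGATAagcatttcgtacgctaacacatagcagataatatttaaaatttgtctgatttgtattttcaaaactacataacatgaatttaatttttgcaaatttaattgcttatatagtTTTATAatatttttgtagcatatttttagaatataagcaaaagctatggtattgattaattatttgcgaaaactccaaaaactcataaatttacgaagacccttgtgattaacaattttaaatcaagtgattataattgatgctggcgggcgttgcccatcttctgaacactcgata
eRF1, chr3L:20348205-20348354, plus strand: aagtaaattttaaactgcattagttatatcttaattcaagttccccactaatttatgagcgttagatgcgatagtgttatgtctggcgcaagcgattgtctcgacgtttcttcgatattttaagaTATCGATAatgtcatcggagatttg

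Among initiation factor genes 6 of 44 were bound (13.6%, interval 6.40 to 26.7%), among elongation factor genes 4 of 8 (50%, interval 21.5 to 78.5%) and among release factor genes 1 of 2. For reference, 55 of 92 genes of cytoplasmic ribosomal proteins (59.8%) and 30 of 73 genes of mitochondrial ribosomal proteins (41.1%) were bound. The 19.3% of all coding genes lay inside the interval of the initiation factor genes. It was a little below the lower limit for the 8 elongation factor genes, 21.5%, which rests on 4 bound genes. The intervals of the initiation and the elongation factor genes overlapped. Without replicate 3 the count was 11 initiation, 4 elongation and 2 release factor genes, and without replicate 2 it was 7, 4 and 2. The 4 elongation factor genes without replicate 2 took in eEF1beta in place of eEF2, which had rank 4143 in replicate 3. Among the strongest regions of both replicates, 3 of the 8 elongation factor genes had a summit, against 16.0% of coding genes. No interval was computed for that count, so whether the elongation factor genes stand above the background was left undecided. No test of the difference between these sets was run, since the sets were chosen with earlier results known.

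**Figure D1:**
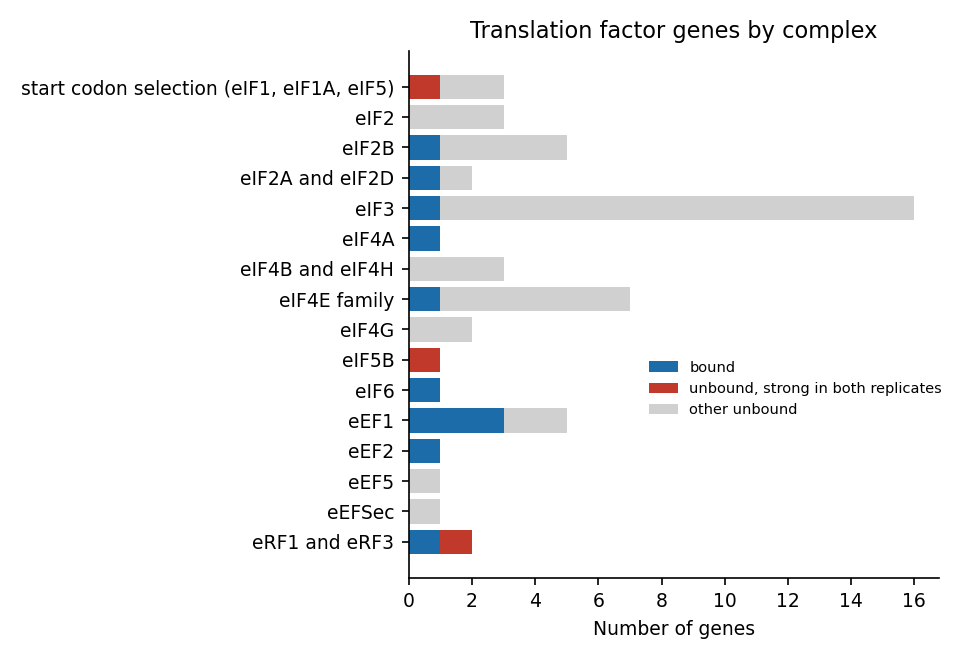
Number of translation factor genes in each complex or family, one bar per complex. Blue marks bound genes, red marks unbound genes with a summit among the 3469 strongest regions of each replicate, and grey marks the other unbound genes. 1 of the 16 eIF3 genes (6.25%, interval 1.11 to 28.3%) and 3 of the 5 eEF1 genes (60%, interval 23.1 to 88.2%) were bound. Of all coding genes 19.3% were bound.

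The deposited signal of a peak, on a scale that the files and labels leave unnamed, ranked the peaks within a list. The 11 bound genes had a median signal of 134 at their highest summit, against 135 at the 2701 bound coding genes and 102 over all 3469 reproducible peaks. Signal spanned 68.2 to 1669.6 among the 11 genes, and the top value of the whole list was 3278. The bound translation factor genes therefore ran from rank 3 to rank 2885 of the list, with their median close to that of bound coding genes in general.

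**Figure D2:**
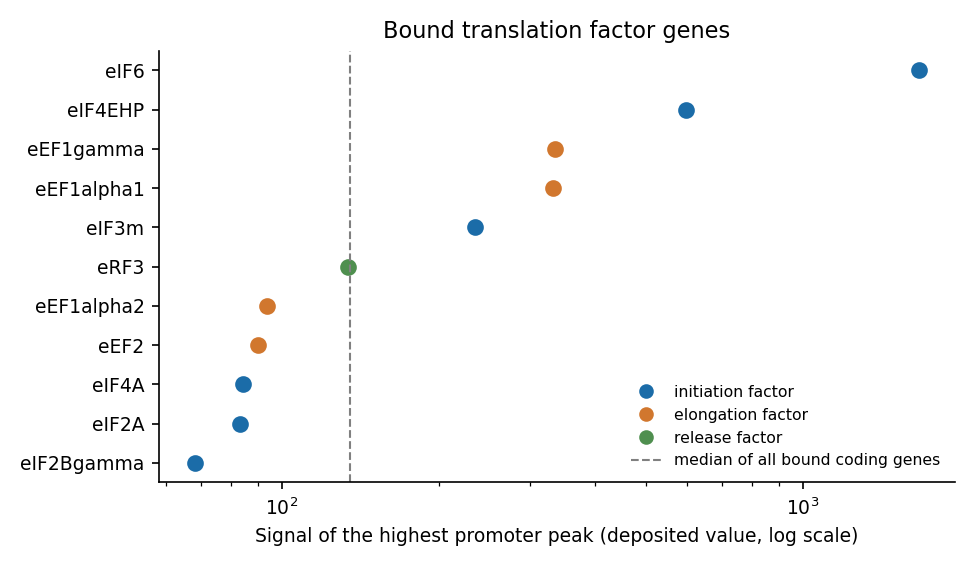
Deposited signal of the highest promoter peak (horizontal log axis) at each of the 11 bound translation factor genes, one point per gene, coloured by class. The dashed line is the median of all bound coding genes, 135. 5 genes lie to the right of it, from eIF3m at 235 to eIF6 at 1669.6, and eRF3 at 134 lies just below it.

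eIF6 keeps the large ribosomal subunit from joining the small one too early and takes part in making the large subunit. Its promoter peak had a signal of 1669.6, rank 3 of 3469, with the summit at −111 bp from the start site. In replicate 2 the overlapping region had a signal of 1026 and rank 3 of 30000 regions, and in replicate 3 a signal of 645 and rank 5 of 30000. eIF6 was thus among the very strongest regions of each list. The summit also lay 82 bp from the start of the antisense RNA gene asRNA:CR45928, inside an intron of ytr.

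eIF4EHP binds the mRNA cap without recruiting eIF4G and represses particular mRNAs, caudal mRNA in the embryo among them. Its peak had a signal of 597 (rank 69), with the summit at −195 bp. The replicates gave it a signal of 336 (rank 85) in replicate 2 and of 253 (rank 68) in replicate 3. The summit was 181 bp from the start site of CG18428, which runs the opposite way, and so was nearer to that gene. A further reproducible summit, with a signal of 73.6, lay 2508 bp inside the gene, in an intron.

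None of the other 6 genes of the eIF4E family was bound. With eIF4EHP this made 1 of 7 (14.3%, interval 2.57 to 51.3%), against 19.3% of coding genes. eIF4E1, eIF4E3, eIF4E4, eIF4E5 and eIF4E7 had no region of any list within 500 bp of a start site. eIF4E6 had a region with its summit at 7 bp, of rank 6305 in the pooled list and 7698 in replicate 2. Each eIF4E gene therefore stood outside the upper ranks of every list, unlike eIF4EHP. The scaffold genes eIF4G1 and eIF4G2, whose products join cap-binding protein and helicase, had no region in any list.

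eIF4A, the DEAD-box helicase that unwinds the mRNA leader, had a peak of signal 84.1 (rank 2215) at −100 bp. The overlapping regions had a signal of 44.7 (rank 2697) in replicate 2 and of 42.6 (rank 2065) in replicate 3. The start site in question was an internal one of its 3 annotated start sites, and with only the outermost start site of each gene counted eIF4A was no longer bound. The helicase cofactor genes eIF4B, eIF4H1 and eIF4H2 were unbound. eIF4B had only weak regions, of rank 15783 in the pooled list, 22669 in replicate 2 and 26505 in replicate 3.

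eIF3, the large scaffold on the small subunit, had 16 genes, of which 1, eIF3m, was bound. This share was 6.25% (interval 1.11 to 28.3%), against 19.3% of coding genes, which the interval takes in. The eIF3m peak had a signal of 235 (rank 536) with its summit at −41 bp. Its overlapping regions had a signal of 146 (rank 514) in replicate 2 and of 86.7 (rank 694) in replicate 3. A start site of CG8323 lay 185 bp from the summit on the other strand. Replicate 2 alone placed 2 further eIF3 genes among its strongest 3469 regions, eIF3h at rank 1210 and eIF3d1 at rank 2600, while replicate 3 had no region at either.

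eIF2 carries the initiator tRNA, and eIF2B exchanges its guanine nucleotide. None of the 3 eIF2 genes had a region in any list, which also held for 41.9% of coding genes. Of the 5 eIF2B genes 1 was bound (20%), against 19.3% of coding genes. This gene, eIF2Bgamma, had a signal of 68.2 (rank 2885) with the summit at −9 bp, and was the weakest of the 11. It had a signal of 56.3 (rank 2046) in replicate 2 and of 19.7 (rank 7633) in replicate 3. eIF2A, a protein able to bring initiator tRNA to the ribosome by another route, was bound with a signal of 83.3 (rank 2237) at −60 bp. The region at eIF2A had a signal of 63.1 (rank 1770) in replicate 2 and of 17.7 (rank 9830) in replicate 3. For both genes replicate 2 ranked the region far higher than replicate 3 did.

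The eEF1 complex delivers aminoacyl-tRNA: the alpha subunit carries it, and the beta, delta and gamma subunits form the nucleotide exchange part. eEF1alpha1 and eEF1alpha2, which encode 2 forms of the carrier, were both bound, and this was the only one of 6 paralogue pairs told apart by a final 1 or 2 with a bound gene. The pairs eIF3d1 and eIF3d2, eIF3f1 and eIF3f2, eIF3g1 and eIF3g2, eIF4G1 and eIF4G2, and eIF4H1 and eIF4H2 had none. Of all coding genes 19.3% were bound. How often paralogue pairs at large have a bound gene was not counted.

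eEF1alpha1 had a signal of 331 (rank 273) at −101 bp, with overlapping regions of signal 207 (rank 251) in replicate 2 and 126 (rank 334) in replicate 3. This summit lay in an intron of the gene, upstream of an internal start site. Nearer the outermost start site was a weaker summit at −95 bp, of signal 73.2, beside the ERp60 start site. A further summit of signal 62.0 lay at −276 bp from another internal start site, beside snoRNA:Me28S-A1322. eEF1alpha2 had a signal of 93.7 (rank 1946) at −79 bp, with 46.8 (rank 2545) in replicate 2 and 42.2 (rank 2098) in replicate 3. Of this pair eEF1alpha1 ranked above eEF1alpha2 in each of the lists.

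eEF1gamma had a signal of 334 (rank 265) at −77 bp, with 207 (rank 248) in replicate 2 and 127 (rank 330) in replicate 3. The summit lay within reach of no other gene's start site. Of its partners in the exchange complex, eEF1delta had no region in any list, and eEF1beta had one of rank 3921 in replicate 2 and of rank 1200 in replicate 3, with none in the pooled list.

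eEF2, the translocase, had a signal of 90.1 (rank 2042) at −17 bp, with 64.2 (rank 1730) in replicate 2 and 26.7 (rank 4143) in replicate 3. eEF5, the counterpart of eIF5A that helps ribosomes through difficult peptide bonds, had no region in any list. eEFSec, the factor for selenocysteine tRNA, had a single weak region of rank 19573 in replicate 3.

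eRF3, the GTPase that works with the stop codon reader eRF1, had a signal of 134 (rank 1222) at −44 bp, inside an intron of the neighbouring SC35 and 257 bp from an SC35 start site. The overlapping regions had a signal of 68.6 (rank 1582) in replicate 2 and of 61.3 (rank 1222) in replicate 3. Further summits at eRF3 had signals of 98.9 at −356 bp and 63.6 at −344 bp from 2 different start sites. The first of these stood 58 bp from an SC35 start site, and which gene a shared peak belongs to was not tested.

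**Figure D3:**
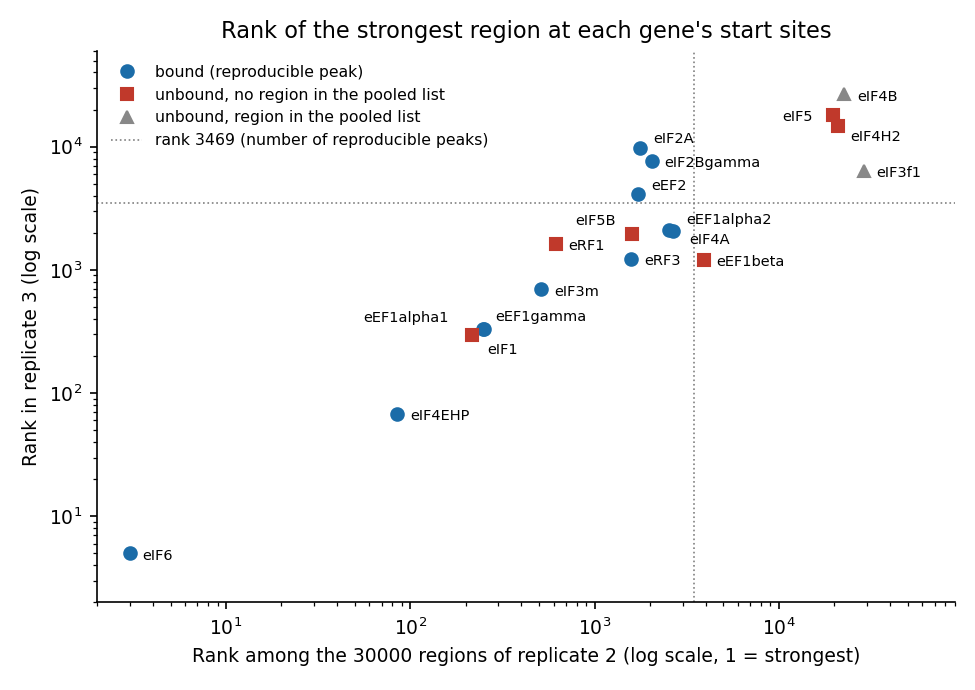
Rank of the strongest region at each gene in replicate 2 (horizontal log axis) and replicate 3 (vertical log axis), where 1 is the strongest of 30000 regions, for the 19 translation factor genes with a region in both lists. Circles are bound genes, squares are unbound genes without a pooled region, triangles are unbound genes with one, and dotted lines stand at rank 3469. eIF1, eRF1 and eIF5B sit among the bound genes, and eEF2, eIF2A and eIF2Bgamma lie above the horizontal line.

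Each of the 15 reproducible summits at the 11 genes was overlapped by a region in both replicate lists. These peaks were chosen for reproducibility and each replicate list held 30000 regions, so the overlap itself says little. The share over all reproducible peaks was not counted. At eRF3 the peaks of signal 134 and 98.9 overlapped the same replicate 3 region (rank 1222), whose summit lay 272 bp from that of the weaker peak. At 8 of the 11 genes (72.7%) a region stood among the strongest 3469 of each replicate. The other 3, eEF2, eIF2A and eIF2Bgamma, had one in replicate 2 only, and counted on replicate 3 alone they would not have been bound. Over all coding genes 2701 were bound, and 2231 had a summit among the strongest 3469 of each replicate, all but 122 of them bound. In replicate 3 alone 13 translation factor genes were bound (24.1%), against 19.7% of coding genes. In replicate 2 alone 17 were bound (31.5%), against 21.1% of coding genes, so that the count rested partly on which library was read.

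When a gene was instead counted where it had a summit among the strongest 3469 regions of both replicate lists, without the pooled list, a rule added after the data were seen, 11 of the 54 translation factor genes (20.4%) met it, against 16.0% of coding genes. 8 of these were bound. The other 3 were eIF1, eRF1 and eIF5B, and none of them had an overlapping region among the 30000 regions of the pooled list. Among the 2231 coding genes that met the rule, 122 (5.47%) were unbound.

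At eIF1 the region had a signal of 223 (rank 217) in replicate 2, at −288 bp, and of 133 (rank 295) in replicate 3, at −235 bp. It lay between eIF1 and RpL28, a ribosomal protein gene on the other strand. eRF1 had a signal of 131 (rank 614) in replicate 2 and of 50.2 (rank 1632) in replicate 3, beside the start site of Rbbp5. eIF5B, the GTPase that joins the subunits, had 68.5 (rank 1586) in replicate 2 and 44.2 (rank 1966) in replicate 3, and 2 reproducible summits deep in its introns, of signal 71.0 and 61.1. By rank in both replicates eIF1 stood above eEF1gamma and eEF1alpha1, yet it was not on the reproducible list.

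Of the other unbound genes, eIF1A, which works with eIF1, had a region of rank 537 in replicate 3, beside Vps39, and none in replicate 2. eIF2D had one of rank 1599 in replicate 2 and none in replicate 3. 25 of the 54 genes (46.3%) had no region in any list within 500 bp of a start site, against 41.9% of coding genes. A pooled region was present at 16 of the 54 genes (29.6%), against 41.9% of coding genes. Only 3011 of the 30000 pooled regions had q under 0.05, so such a region can be background.

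Going by the summit nearest to a start site, the furthest of the bound genes was eIF4EHP, at 195 bp. The nearest reproducible summit of an unbound gene was at 691 bp, for eIF2Bbeta, with a signal of 1215.43, followed by eIF3d1 at 1261 bp and eIF3g1 at 1370 bp. No translation factor gene had its nearest reproducible summit between 195 and 691 bp.

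**Figure D4:**
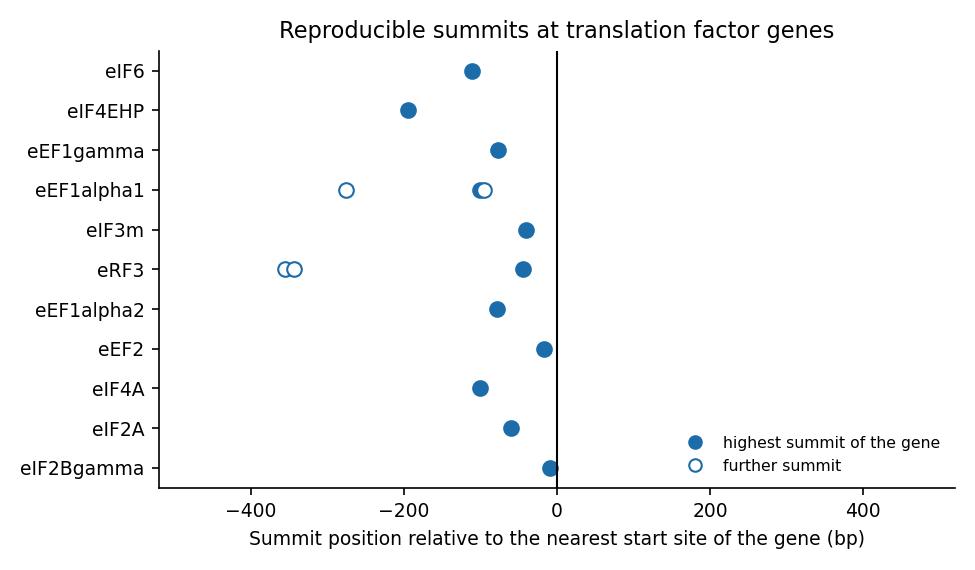
Position of each reproducible summit relative to the nearest start site of the gene, in bp (horizontal axis), for the 11 bound genes ordered by signal. Filled points are the highest summit of each gene and open points are further summits. All filled points lie between −195 and −9 bp, upstream of that nearest start site, which can be an internal one.

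The highest summit was upstream of the nearest start site in 11 of 11 bound translation factor genes, against 87.1% of the bound coding genes. It was within 200 bp in 11 of 11, against 70.8% of bound coding genes, and its median position was −77 bp against −131 bp. At eEF1alpha1, eIF4A and eIF2A the nearest start site was an internal one, and the summit lay downstream of the outermost start site. More than 1 start site was annotated for 72.7% of bound translation factor genes, against 44.4% of bound coding genes, and further start sites can only shorten such distances. In 7 of the 11 genes the highest summit had no start site of another gene within 500 bp. The remaining 4 were eIF6, eIF4EHP, eIF3m and eRF3.

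A coding gene started head to head, within 500 bp on the other strand, at 4 of 11 bound (36.4%) and 18 of 43 unbound translation factor genes (41.9%), against 51.0% of bound and 21.6% of unbound coding genes. More than 1 start site was annotated for 8 of 11 bound (72.7%) and 14 of 43 unbound translation factor genes (32.6%), against 44.4% of bound and 22.2% of unbound coding genes. A gene with more start sites has more windows in which a summit can fall.

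By chromosome, 3 of 6 translation factor genes on 2L were bound, against 17.2% of the coding genes there, and 4 of 13 on 2R, against 16.2%. On 3L 1 of 12 was bound, against 21.4% of coding genes, and on 3R 3 of 15, against 21.9%. The 7 genes on X, among them eIF2alpha, eIF5 and eIF3g1, gave 0 bound, against 19.9% of the coding genes on X. With the limit taken as 3 divided by the number of genes, this count allows a share of up to 42.9%. The 1 gene on chromosome 4, eIF4G1, was unbound, against 13.8% of coding genes bound there.

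Promoters were searched on both strands from 250 bases before to 50 bases after each start site, and TATCGATA and CAGCTG read the same on both strands. TATCGATA was in 16 of 54 translation factor promoters (29.6%), against 10.2% of all coding promoters and 30.4% of those of cytoplasmic ribosomal protein genes. It was in 4 of 11 bound (eIF6, eIF4A, eIF2A and eEF1gamma) and 12 of 43 unbound translation factor genes, 36.4% and 27.9%, against 16.8% of bound coding genes. With 100 bases before the start site these were 36.4% of bound and 23.3% of unbound translation factor genes, against 13.4% of bound coding genes. The difference between bound and unbound translation factor genes was not tested. The site upstream of eIF1 lay outside this window and is not in the count.

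TATAAA was in 10 of 11 bound (90.9%) and 16 of 43 unbound translation factor genes (37.2%), against 55.2% of bound coding genes. A gene with more start sites has more sequence searched. More than 1 start site was annotated for 72.7% of bound and 32.6% of unbound translation factor genes, and for 44.4% of bound coding genes. How much of the difference in TATAAA goes with this was not tested. TATAAA was in 48.1% of all 54 genes, against 51.2% of coding genes. With only 100 bases before the start site it was in 4 of 11 bound (36.4%) and 9 of 43 unbound genes (20.9%), against 24.0% of bound coding genes, and in 24.1% of the 54 against 28.3% of coding genes. GAGAG was in 29.6% of the 54 against 36.2% of coding genes, and CAGCTG in 11.1% against 22.3%. With 100 bases before the start site GAGAG was in 13.0% against 23.8%, and CAGCTG in 9.26% against 15.4%. ACAGTGG was in 7.41% against 4.85%, and GGTCACACT in 7.41% against 6.77%.

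Around the 15 summits, 100 bases to each side, TATCGATA occurred at 2 (13.3%, eEF1gamma and eIF2A), against 7.25% of the 2289 reproducible peaks at start sites. ACAGTGG occurred at 2 (13.3%, eRF3 and eIF4A), against 5.90%, and TATAAA at 7 (46.7%) against 35.9%. CAGCTG occurred at 2 (13.3%) against 12.6%, GAGAG at 2 (13.3%) against 22.0%, and GGTCACACT at 0 against 3.06%. With counts this small each share moves by several points with 1 summit.

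The polypyrimidine TCT initiator marks the start site of many ribosomal protein genes and of some translation factor genes in Drosophila. TCTTT, searched on the coding strand with its C within 5 bases of a start site, was found in 5 of the 54 translation factor genes (9.26%), against 2.23% of coding genes and 48.9% of cytoplasmic ribosomal protein genes. The bound eEF2, eIF4A and eIF3m and the unbound eEF5 and eIF3i had it. It is shown in capitals for 3 of these genes.
eEF2, chr2L:21682100-21682124, minus strand: cagcgcctcgcTCTTTcctgtcgaa
eIF4A, chr2L:5981756-5981780, plus strand: aagatggagccTCTTTtgcttggtt
eIF3i, chr2L:4967759-4967783, minus strand: cggtcacactgcTCTTTtggcgtgt
The C of TCTTT lay 4 bases after the annotated start site in eEF2 and eIF4A and 5 bases after it in eIF3i, at or near the limit of the search. Whether these matches work as TCT initiators was not tested. In eEF2 and eIF4A TCTTT stood at another start site than the one nearest to the summit.

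Regulators and partners of translation factors were read the same way. Of 28 listed genes 26 were in the annotation, and 7 of them were bound (26.9%, interval 13.7 to 46.1%), an interval that takes in the 19.3% of coding genes. REPTOR, a transcription factor held back by TORC1, had a signal of 593, and larp, which binds mRNAs of the translation machinery, had 430. HBS1, a relative of eRF3 in ribosome rescue, had 195 and shared its peak window with CG12025.

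crc, the fly ATF4 that is translated when eIF2 is phosphorylated, had a signal of 158. Thor, the fly 4E-BP that holds eIF4E away from eIF4G, had 114.5, and its summit lay at −290 bp. MCTS1, the partner of DENR in reinitiation, had 116 and shared its window with rux. S6k, the kinase of ribosomal protein S6, had 78.7 and shared its window with kri. The eIF2 kinase genes Gcn2 and PEK and the eIF4E-binding protein genes 4E-T, cup and mxt were unbound. PPP1R15, a subunit of the phosphatase that reverses eIF2 phosphorylation, was unbound too, with regions of rank 1845 in replicate 2 and 2528 in replicate 3.

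Of 12 listed mitochondrial translation factor genes 8 were in the annotation and 0 were bound (Wilson interval 0 to 32.4%), against 19.3% of coding genes. The limit taken for the genes on X allows a share of up to 37.5% here. The interval takes in the share of coding genes, so 8 genes were too few to show that these genes were bound less often. mEFTu1 had regions of rank 2547 in replicate 2 and 2724 in replicate 3 all the same, without a reproducible summit.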

How the data were processed

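Chromatin immunoprecipitation and sequencing (ChIP-seq) was done on 2 biological replicates of whole adult toe-GFP males, per the labels. Per the file notes, the authors called regions on each replicate and on both pooled, against a control that is not analysed here, and derived the reproducible list by the irreproducible discovery rate. Aligner, peak caller, versions: not given in the sources used here. Deposited dm6 lists were used: 3469 reproducible peaks and 30000 pooled regions, and 30000 regions for each replicate. The deposited signal (column 7) is the authors' own value for a peak and was used only to describe and rank peaks within a list. The deposited −log10 of the q-value, read by the usual layout of this file type, served to count peaks with q under 0.05, and all 11 bound genes had one at their highest summit. Of 30000 regions each, 3011 of the pooled list, 3437 of replicate 2 and 2467 of replicate 3 had q under 0.05. The pooled list was deposited as peaks and background together, so a region in it need not be a peak.

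Start sites came from Ensembl release 115 (BDGP 6.54), sequence from RefSeq's copy of the same assembly. Positions count from 1 and overlap means at least 1 shared base. Python 3.11.15, numpy 2.4.6, scipy 1.17.1 and matplotlib 3.10.9 were used. The assignment of summits to start sites was tested on simulated data. Every bound gene is named, and unbound genes are named by complex or paralogue group. Gene lists, motifs and members were chosen with earlier results of these data known. No test was run. Lists hold no read counts, so depth is unknown and intervals cover counting only. 0 regions had the same coordinates in both replicates. The listed symbols Tor, poly, mEFG2, mtIF2, mtIF3 and mtRF1 matched no gene. Alternatives varied the window, the start sites, the peak set and the replicates.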

Additional observations from a re-analysis of the deposited data

How the results depend on the processing

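The count of 11 bound translation factor genes was 11 with a 200 bp window, 12 with a 1000 bp window, which added eIF2Bbeta, and 11 with peaks of q under 0.05. It was 10 with 1 start site per gene, without eIF4A, 9 with each summit given to its nearest start site, without eIF6 and eIF4EHP, and 10 with the peak interval over the start site, without eIF4EHP. The stronger 1734 reproducible peaks gave 6 genes (11.1%): 3 initiation, 2 elongation and 1 release factor gene, with a median signal of 333. The median was 205 with the 1000 bp window. Leaving out a replicate and taking the strongest 3469 regions of the other gave 13 to 17 genes, 7 to 11 of them initiation factor genes and 2 release factor genes either way. 8 of the 11 genes kept their call without replicate 2, and 11 without replicate 3. The share of all coding genes was 14.4% with the 200 bp window, 21.8% with 1000 bp, 12.7% with the stronger peaks, 17.8% with q under 0.05, 17.4% with 1 start site per gene, 14.2% with nearest start sites, 13.2% with peak intervals, 16.0% from both replicates without the pooled list, and 19.7 to 21.1% with a replicate left out. The causes of these shifts were not tested beyond what each setting changes. Signal was not recomputed without a replicate, since lists have scales of their own. No paired analysis was possible because there was only 1 group. With 2 replicates of unknown depth, a gene without a region was not detected, which does not show that toe was absent from it.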

Other observations

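The regions at eIF1, eRF1 and eIF5B were not alone in missing from the pooled list. Of the strongest 3469 regions of replicate 2, 2535 overlapped a strongest region of replicate 3, and 92 of these (3.63%) overlapped no pooled region. Of the strongest 3469 regions of replicate 3, 2510 overlapped one of replicate 2, and 90 of these (3.59%) overlapped no pooled region. The strongest by replicate 2 signal lay at chr3L:12407017-12407227, beside no annotated start site, with a signal of 308 (rank 104) in replicate 2 and of 281 (rank 47) in replicate 3. Of the 11 translation factor genes strong in both replicates, 3 (27.3%) had no pooled region in their windows, against 112 of 2231 coding genes (5.02%). What set these regions apart was not tested.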
